A study of Mus musculus with 6 samples.

Results

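The genes described here are the fatty acid receptors Pparg and Ppard, the fatty acid carriers Cd36, Fabp4 and Fabp5, the lipid droplet coat gene Plin2, the lipase Lpl and its inhibitor Angptl4, and the mitochondrial genes Cpt1a and Pdk4. They were chosen by gene name, 10 of the 46141 genes in the deposited table, and each name matched 1 gene. The libraries hold RNA of adherent peritoneal macrophages from male Balb/c mice, 6 to 8 weeks old, after an injection into the peritoneal cavity of 0.2 mL of phosphate-buffered saline (PBS, the control) or of BSN-37 at 48 µg/mL, a compound identified in the sources by this code name alone. All mice of both groups had received 2 mL of 3% thioglycollate broth, an irritant that draws monocytes and macrophages into the cavity, 3 days before sampling, and the cavity was washed out 12 h after the injection and the cells left to adhere for 4 h. Each group held 18 mice, and RNA of 6 mice was pooled per library, so that n is 3 pools per group throughout and the spread between single animals was not measured.

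PPAR gamma and PPAR delta, encoded by Pparg and Ppard, are nuclear receptors that bind fatty acids and their oxidised derivatives and pair with RXR on DNA. In macrophages PPAR gamma is known for its induction by interleukin 4 and GM-CSF and for genes of lipid uptake, storage and export, among them Cd36, Fabp4, Plin2, Lpl and Angptl4. Fatty acids that enter the cell are either stored in lipid droplets or carried into mitochondria through CPT1A, while PDK4 slows the competing use of pyruvate.

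The receptors bind direct repeats of the nuclear receptor core hexamer AGGTCA, so the RefSeq promoter windows (GRCm38.p6, 250 bases before to 50 bases after a start site) of the genes were searched for it on either strand. A window was held for 6 of the 10 genes, 8 windows in all, 3 of them of Pparg. The hexamer stood in 5 of the 8 windows, 2 of them of Pparg, against 16.3% of 32851 windows of this length. By gene, for which no such share was taken, it stood in 4 of the 6 (Pparg, Cpt1a, Cd36 and Plin2). Its direct repeat with 1 base between, searched as AGGNCANAGGNCA, was in 0 of the 8 windows and in 0.381% of all. A match is a description of letters and not a bound site. Shown here are the more upstream of the 2 windows of Pparg with a hexamer, that of Cpt1a, which had the lowest p among the tested genes with a lower mean, and that of Plin2, an abundant gene whose groups overlapped. Capitals mark the hexamer, which reads TGACCT where it lies on the opposite strand.
Pparg, chr6:115360894-115361193, plus strand: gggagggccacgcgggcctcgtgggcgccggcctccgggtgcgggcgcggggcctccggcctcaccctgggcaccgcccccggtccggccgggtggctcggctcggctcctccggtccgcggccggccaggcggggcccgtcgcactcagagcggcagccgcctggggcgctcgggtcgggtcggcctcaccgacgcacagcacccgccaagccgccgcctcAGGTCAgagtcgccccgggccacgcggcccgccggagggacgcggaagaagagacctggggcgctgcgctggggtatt
Cpt1a, chr19:3323051-3323350, plus strand: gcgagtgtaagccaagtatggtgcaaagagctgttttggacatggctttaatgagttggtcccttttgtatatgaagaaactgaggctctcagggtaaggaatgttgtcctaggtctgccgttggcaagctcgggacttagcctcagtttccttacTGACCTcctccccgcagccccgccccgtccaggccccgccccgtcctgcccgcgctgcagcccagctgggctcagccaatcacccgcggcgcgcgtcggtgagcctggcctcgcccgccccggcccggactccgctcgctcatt
Plin2, chr4:86670010-86670309, minus strand: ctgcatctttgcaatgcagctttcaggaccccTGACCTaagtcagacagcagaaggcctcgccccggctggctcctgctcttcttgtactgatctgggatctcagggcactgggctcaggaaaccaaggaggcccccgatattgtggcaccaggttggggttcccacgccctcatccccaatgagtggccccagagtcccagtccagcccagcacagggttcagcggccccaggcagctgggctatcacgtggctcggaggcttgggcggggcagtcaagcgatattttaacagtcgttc
The hexamer began 28 bases before the start site of Pparg, 94 before that of Cpt1a and 218 before that of Plin2. A gene with a higher mean after BSN-37, one with a lower mean and one with overlapping groups each held 1.

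Totals over all genes were 55.9 to 65.5 M reads per library. Principal component 1 of the coding genes, with 42.7% of the variance, set PBS library 1 (-33.1) apart from the other 5 libraries (-1.89 to 13). On the same axis the BSN-37 libraries (8.66 to 13) also lay above PBS libraries 2 and 3 (-1.89 and 2.19). Values of named genes that turned or moved by more than 1.5 times without PBS library 1 are given beside their main value. All 8 markers of the labelled cell type, macrophages, were read in every library, with a sum of 15290 to 17975 FPKM (fragments scaled by gene length and library size) that was nearly all Lyz2, a gene that monocytes and neutrophils share. Adgre1, which encodes the macrophage antigen F4/80, was at 264 to 425 FPKM, and Csf1r, the receptor of macrophage colony-stimulating factor, at 411 to 515 FPKM. In the fit across 9864 coding genes with edgeR, 1 gene (0.0101%) passed an adjusted p under 0.05. It was Zfp36l1, an RNA-binding decay factor of AU-rich messages (4.60 ± 0.681 FPKM after PBS and 12.9 ± 1.82 after BSN-37, mean ± SD as for all such pairs, adjusted p = 0.0462). With 1 library left out Zfp36l1 passed in 1 of 6 refits, the one lacking BSN-37 library 2 (adjusted p = 0.0244). In the other 5 its adjusted p was 0.0843 to 0.389.

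None of the 10 genes passed the edgeR threshold, and the DESeq2 fit called 2 of them, Pparg and Fabp5, both with more RNA in the BSN-37 pools. DESeq2 called 1.18% of all genes tested. At an unadjusted p under 0.05, which 9.1% of all genes met, edgeR gave 3 of the 8 genes that passed the low-value filter of 1 FPKM in 3 libraries: Pparg and Fabp5 higher and Cpt1a lower. The same 3 genes had groups that did not overlap in CPM (reads scaled by library size). Across all genes tested, 7.32% lay above PBS in every BSN-37 library and 9.05% below. Of the 8, 6 had a higher and 2 a lower mean, with a median log2 difference of 0.09 against -0.0022 over all genes. None of the 8 combined an unadjusted p below 0.05 with group means more than 2 times apart, which 0.71% of all genes tested did. Angptl4, which the filter left out, met both limits in the edgeR fit without the filter. Its mean FPKM after BSN-37 was 0.481 times that of PBS. In these bulk samples, fewer cells of a type and less RNA per cell cannot be told apart.

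**Figure D1:**
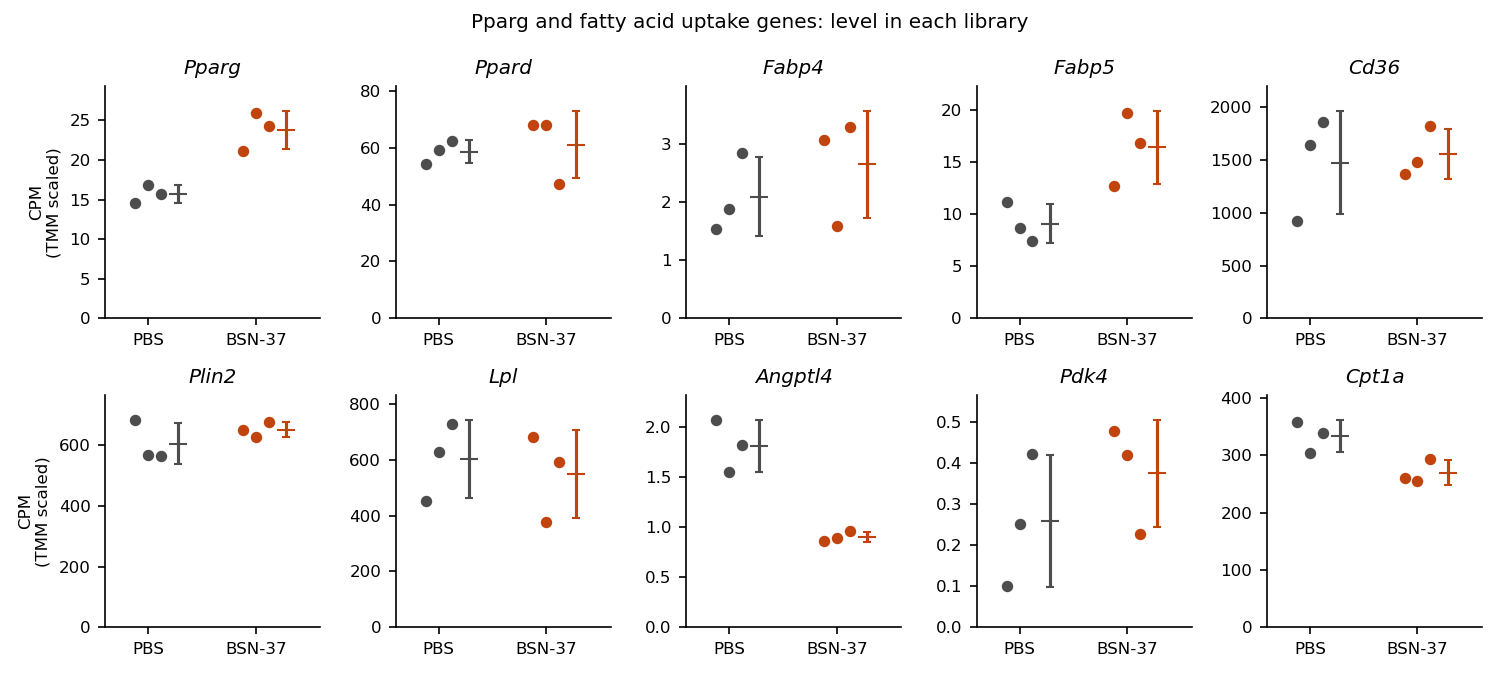
CPM (reads scaled by library size and TMM factors) of the 10 genes in the 3 PBS (grey) and 3 BSN-37 (orange) libraries, with the mean and SD of each group beside the points; each axis starts at 0. The groups stand apart for Pparg, Fabp5, Cpt1a and Angptl4 and overlap for the other genes.

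Pparg lies on chromosome 6 from 115360951 to 115490399, plus strand (GRCm38). Its RNA stood at 6.49, 7.68 and 6.86 FPKM in PBS libraries 1 to 3 and at 9.27, 12.3 and 10.9 FPKM in BSN-37 libraries 1 to 3. Every BSN-37 library was above every PBS library, and the lowest BSN-37 value was 1.59 FPKM above the highest of PBS. The reads behind these levels numbered 861 to 1076 per PBS library and 1154 to 1610 per BSN-37 library. The mean in CPM was 1.51 times that of PBS (log2 difference 0.60, SE 0.13, 95% interval 0.30 to 0.90). The unadjusted edgeR p was 0.00161 and the adjusted p 0.366, against an adjusted p of 0.0173 with DESeq2. Leaving out single libraries gave log2 differences of 0.53 to 0.68, all with an adjusted p above the threshold. The annotation places an antisense gene, Gm44079, across Pparg on the opposite strand. The deposited values list no read counts under the Ensembl ID of Gm44079. The sources used here do not say whether the authors counted by strand, so reads of the 2 cannot be told apart with certainty.

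Ppard, the more widely expressed receptor, lies on chromosome 17 from 28232700 to 28301474, plus strand. It had 15.8, 18.4 and 17.7 FPKM in the PBS libraries, against 19.1, 21.5 and 13.9 FPKM after BSN-37. The groups overlapped, since BSN-37 library 3 was the lowest of the 6 and libraries 1 and 2 the highest. The log2 difference was 0.06 (95% interval -0.30 to 0.42, adjusted p = 0.914). It was 0.01 without PBS library 1, and its sign turned without BSN-37 library 1 or 2, at -0.02 in each case.

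Ppard was the more abundant receptor in every library, and the level of Pparg relative to it was set out per library. The Pparg to Ppard ratio of FPKM was 0.411, 0.416 and 0.388 in the PBS pools and 0.485, 0.572 and 0.786 in the BSN-37 pools. The PBS pools were close to each other, and each BSN-37 pool was above them. The highest ratio, in BSN-37 library 3, came with the lowest Ppard level. This ratio was not tested.

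**Figure D2:**
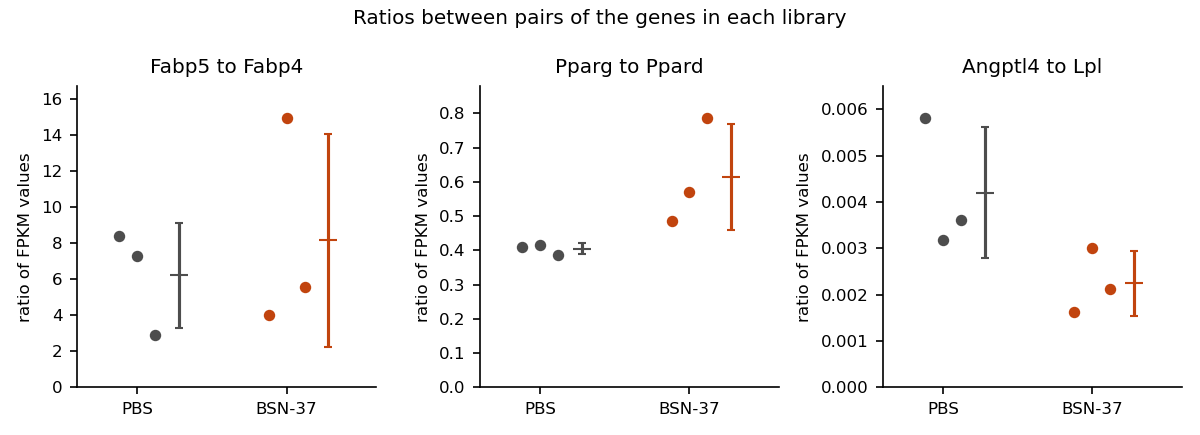
Ratio of FPKM values of gene pairs in each PBS (grey) and BSN-37 (orange) library, with the mean and SD of each group. The Pparg to Ppard ratio is above 0.416 in each BSN-37 library, the Angptl4 to Lpl ratio is lower in each BSN-37 than in each PBS library, and the Fabp5 to Fabp4 ratio overlaps between groups.

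By a rule of likeness over the 6 libraries, the coding genes nearest to Pparg were Csf3r, Cyp27a1, Arhgef37, Il13ra1 and Arhgap24. The measure was the root mean square difference of log2(FPKM + 1) after each gene's own mean was subtracted, and it was 0.0756 for Csf3r and 0.0855 for Arhgap24, against a median of 0.325 over all tested genes. All 5 stood higher in each BSN-37 library than in any PBS library, as follows from likeness to a gene that does. Csf3r, which encodes the G-CSF receptor, stood at 58.3 ± 4.26 FPKM after PBS and 80.3 ± 8.77 after BSN-37 (log2 difference 0.44, adjusted p = 0.403, and 0.0466 with DESeq2). Arhgef37 had 10.3 ± 0.759 and 15.8 ± 2.95 FPKM (0.58, adjusted p = 0.366, and 0.0173 with DESeq2). Arhgap24, a GTPase-activating protein of Rac, had 3.14 ± 0.652 and 5.15 ± 1.11 FPKM (0.68, adjusted p = 0.414).

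Among the carriers, Cd36 encodes the scavenger receptor that takes up long-chain fatty acids and oxidised lipoproteins, and lies on chromosome 5 from 17781690 to 17888801, minus strand. It was the most abundant of the 10 genes by mean FPKM in both groups, with a level above that of 99.1% of the genes tested. Its level was 218, 396 and 428 FPKM in the PBS libraries, against 317, 372 and 434 FPKM after BSN-37. The groups overlapped, with PBS library 1 far below the other 5. The log2 difference was 0.08 (95% interval -0.47 to 0.63, adjusted p = 0.927). Leaving out PBS library 1 turned it to -0.16. It also turned, to -0.05, without BSN-37 library 3.

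Fabp5, the epidermal fatty acid binding protein that carries ligands to PPAR delta, lies on chromosome 3 from 10012548 to 10016607, plus strand. It was at 6.66, 5.53 and 4.67 FPKM after PBS and at 7.91, 16.0 and 9.45 FPKM in the BSN-37 libraries, from 660, 554 and 477 against 694, 1223 and 1111 reads. The groups did not overlap, though BSN-37 library 1 lay only 1.25 FPKM above the highest PBS library. In CPM the mean was 1.81 times that of PBS (log2 difference 0.85, SE 0.21, 95% interval 0.37 to 1.34). The unadjusted edgeR p was 0.00331 and the adjusted p 0.385, against an adjusted p of 0.0225 with DESeq2. The transcript length implied by reads and FPKM together varied between libraries for this gene, from 1259 to 1813 bases, so its FPKM and its counts do not move in step. Fabp5 has processed pseudogenes in the mouse genome, and how the authors assigned reads shared with them is not stated, so its counts are uncertain to that extent.

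Fabp4, the fatty acid binding protein of adipocytes and macrophages, lies on the same chromosome from 10204088 to 10208576, minus strand. It was near the filter, with 0.791, 0.757 and 1.59 FPKM in PBS and 1.97, 1.07 and 1.70 FPKM in BSN-37. It reached 1 FPKM in 1 PBS library and in all 3 BSN-37 libraries, so it entered the test mainly through the BSN-37 group. The groups overlapped, with BSN-37 library 2 below PBS library 3, and the log2 difference was 0.34 (95% interval -0.45 to 1.13, adjusted p = 0.763). Leaving out single libraries moved it between 0.15 and 0.63, with 0.17 without PBS library 1. The implied transcript length ran from 1519 to 2549 bases, and BSN-37 library 2 had 1.07 FPKM from 99 reads where PBS library 2 had 0.757 FPKM from 120, so levels of Fabp4 in FPKM depend on it. The Fabp5 to Fabp4 ratio of FPKM ran from 2.93 to 8.42 in PBS and from 4.02 to 14.9 in BSN-37, a mean log2 difference of 0.30, against 0.53 when taken in CPM. Fabp5 was the more abundant of the pair in every library.

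Plin2 encodes the coat protein of lipid droplets found in most cell types and lies on chromosome 4 from 86648386 to 86670060, minus strand. It was the second most abundant of the genes, at 328, 280 and 269 FPKM in PBS and 309, 319 and 332 FPKM in BSN-37. The BSN-37 libraries were close together, and PBS library 1 was within their range while PBS libraries 2 and 3 were below it. The log2 difference was 0.11 with a 95% interval of -0.17 to 0.38 (adjusted p = 0.787). Without PBS library 1, on which the overlap rests, the groups stood apart and the log2 difference was 0.21, with an adjusted p still above the threshold.

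Lpl, which encodes lipoprotein lipase, the secreted enzyme that frees fatty acids from triglyceride-rich lipoproteins, lies on chromosome 8 from 68880491 to 68907448, plus strand. It stood at 95.7, 134 and 150 FPKM in PBS and at 139, 82.4 and 123 FPKM in BSN-37. The groups overlapped over most of their range, with the lowest value in BSN-37 library 2. The log2 difference was -0.13 (95% interval -0.68 to 0.42, adjusted p = 0.869). It was -0.30 without PBS library 1, and turned to 0.03 without PBS library 3 and to 0.08 without BSN-37 library 2.

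Angptl4, the secreted inhibitor of lipoprotein lipase, lies on chromosome 17 from 33773750 to 33781830, minus strand, and did not reach 1 FPKM in any library. It had 0.555, 0.426 and 0.542 FPKM in PBS and 0.225, 0.247 and 0.261 FPKM in BSN-37, from 122, 99 and 116 against 47, 55 and 63 reads. All BSN-37 libraries were below all PBS libraries, and the mean in CPM was 0.498 times that of PBS. In the alternative fit without the filter, over 15562 genes, its log2 difference was -1.01 (95% interval -1.69 to -0.33), with an unadjusted edgeR p of 0.00723 and an adjusted p of 0.419. The Angptl4 to Lpl ratio of FPKM was 0.00580, 0.00317 and 0.00361 in PBS and 0.00162, 0.00300 and 0.00212 in BSN-37. The groups did not overlap, but PBS library 2 and BSN-37 library 2 were close, and the ratio was not tested.

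Of the mitochondrial genes, Cpt1a encodes the liver form of carnitine palmitoyltransferase 1, the controlled step of fatty acid import into mitochondria, and lies on chromosome 19 from 3322334 to 3385733, plus strand. It had 69.0, 59.8 and 64.0 FPKM in PBS and 49.5, 52.2 and 57.3 FPKM in BSN-37. Each BSN-37 library was below each PBS library, with 2.50 FPKM between the closest pair. The mean in CPM was 0.809 times that of PBS (log2 difference -0.31, SE 0.12, 95% interval -0.58 to -0.04). The unadjusted edgeR p was 0.0310 and the adjusted p 0.519, and DESeq2 gave an adjusted p of 0.364. Leaving out single libraries gave log2 differences of -0.37 to -0.25.

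Pdk4, a kinase that switches off pyruvate dehydrogenase, lies on chromosome 6 from 5483351 to 5496309, minus strand, and was close to the limit of detection. It had 6, 16 and 27 reads after PBS and 26, 26 and 15 after BSN-37. The groups overlapped in CPM but not in FPKM (0.0231 to 0.0965 in PBS and 0.101 to 0.111 in BSN-37), and the length implied by reads and FPKM differed up to 1.96 times between libraries. The alternative fit without the filter gave a log2 difference of 0.52 with a 95% interval of -1.11 to 2.15 (adjusted p = 0.843), so no difference was detectable at this depth.

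**Figure D3:**
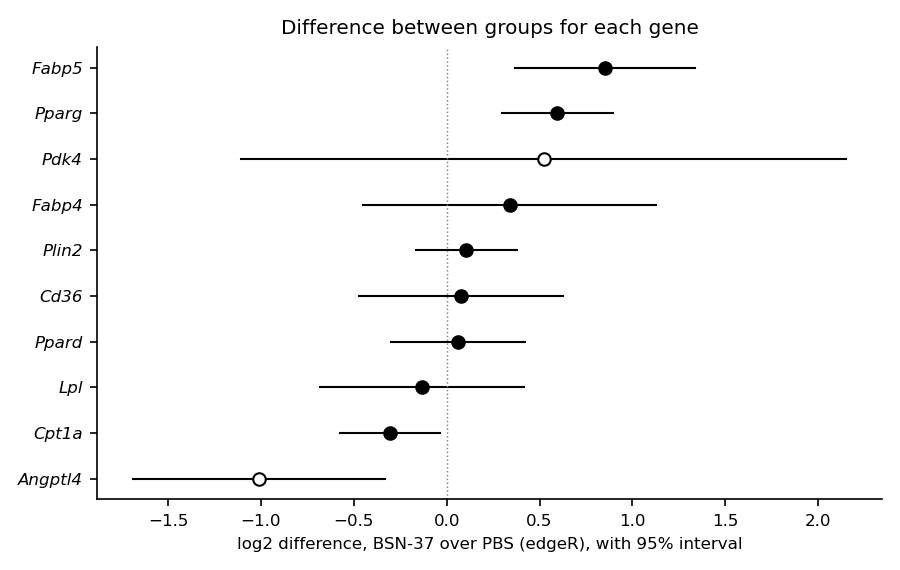
Log2 difference between BSN-37 and PBS with its 95% interval (edgeR) for each gene. Filled points come from the fit of genes past the low-value filter and open points (Angptl4 and Pdk4) from the fit without it; the intervals of Fabp5, Pparg, Cpt1a and Angptl4 do not reach 0, and none is adjusted for the number of genes tested.

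By mean FPKM the order in the PBS pools was Cd36, Plin2, Lpl, Cpt1a, Ppard, Pparg, Fabp5, Fabp4, Angptl4 and Pdk4. The same order was found in the BSN-37 pools except that Fabp5 (11.1 ± 4.32 FPKM) stood ahead of Pparg (10.8 ± 1.51 FPKM). Cd36 and Plin2 overlapped in range in both groups and are not separated by their spread, and likewise Pparg and Fabp5. In the BSN-37 pools the ranges of Ppard and Fabp5 overlapped too, and the other neighbours in the order stood apart. The deposited circular RNA table listed none of the 10 as host of its 1273 loci.

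The surrounding pathway was read from 8 lists with 125 genes, of which 100 were tested. None passed the edgeR threshold and DESeq2 called 1, Cyp27a1. At an unadjusted p under 0.05 there were 7 higher and 7 lower genes, 14% of those tested against 9.1% of all genes, and 47 of the 100 were higher and 53 lower in the BSN-37 pools. Among the genes under this p were Apoc1 and Fitm2, which entered the test only or mainly through the group where they were higher. The lists were chosen with earlier results of these data known, so the share is a description and not a test. The groups did not overlap for 9 higher and 8 lower genes of the 100, near the 7.32% and 9.05% of all genes, and the DESeq2 call of 1 is near its 1.18%.

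The list of signals and enzymes around PPAR gamma held the receptors of interleukin 4 and GM-CSF, STAT6 and enzymes that make lipid ligands. Of its 13 tested genes, 11 were higher (median log2 difference 0.14). A place on this list does not set a gene upstream of the receptor, and this was not tested. Cyp27a1, the sterol 27-hydroxylase that makes oxysterols, was at 3.23, 3.14 and 3.02 FPKM in PBS and at 4.56, 6.04 and 5.43 FPKM in BSN-37. Its groups did not overlap, and its log2 difference was 0.71 (SE 0.17), with an adjusted p of 0.366 by edgeR and 0.0205 by DESeq2. Il13ra1, a receptor chain of interleukin 13 that also serves interleukin 4, had 4.92 ± 0.718 and 7.58 ± 1.59 FPKM (0.59, adjusted p = 0.403). Of the receptor partners and coactivators 5 of 12 were higher (median -0.03), and none had an unadjusted p under 0.05. The 2 of lowest p were Ep300, a histone acetyltransferase that serves as coactivator (30.1 ± 2.72 and 34.8 ± 0.773 FPKM, 0.21), and Ppargc1b, the coactivator PGC-1 beta (2.27 ± 0.648 and 1.90 ± 0.480 FPKM, -0.24). Without PBS library 1 the value of Ppargc1b was 0.08.

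Of 12 tested genes of fatty acid transport, binding and activation, 7 were higher and 5 lower (median 0.01). Msr1, the class A scavenger receptor for modified lipoproteins, was at 67.8, 104.8 and 101.5 FPKM in PBS and at 124, 131 and 153 FPKM in BSN-37. The groups did not overlap and PBS library 1 was the lowest, with a log2 difference of 0.54 (adjusted p = 0.443). Slc27a1, a fatty acid transport protein with acyl-CoA synthetase activity, had 15.2 ± 3.07 and 11.9 ± 0.771 FPKM (-0.38, adjusted p = 0.538, and -0.21 without PBS library 1). Of 13 droplet and lipolysis genes, 5 were higher and 8 lower (median -0.03). Dgat2, which catalyses the last step of triglyceride synthesis, had 1.68 ± 0.532 and 3.19 ± 0.793 FPKM (0.90, adjusted p = 0.427), while Fitm2, an endoplasmic reticulum protein of droplet formation, had 1.61 ± 0.438 and 0.974 ± 0.0561 FPKM (-0.75, adjusted p = 0.427). The groups did not overlap for either. Fitm2 was under 1 FPKM in BSN-37 libraries 1 and 3 (0.931 and 0.954 FPKM), so it entered the test mainly through the PBS group.

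Of 7 genes that act on lipoprotein lipase, 3 were higher and 4 lower (median -0.09). Apoc1, an apolipoprotein that inhibits the lipase, had 0.494 ± 0.109 FPKM after PBS and 1.36 ± 0.274 after BSN-37, did not overlap between groups, and entered the test only through the BSN-37 libraries (log2 difference 1.32, adjusted p = 0.403). Apoc2, the apolipoprotein that activates it, had 23.4 ± 2.40 and 33.3 ± 8.62 FPKM (0.48, adjusted p = 0.509).

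Mitochondrial import and beta-oxidation, the pathway that Cpt1a feeds, had 16 of 21 tested genes lower (median -0.12, against -0.0022 over all genes). The summed FPKM of this list overlapped between groups, at 575 to 675 in PBS and 545 to 618 in BSN-37. The highest sum was that of PBS library 1. Eci2, an enoyl-CoA isomerase for unsaturated fatty acids, had 17.6 ± 1.72 and 14.3 ± 0.930 FPKM (-0.32, adjusted p = 0.507). Etfb, a subunit of the flavoprotein that takes electrons from beta-oxidation, had 25.9 ± 6.89 and 18.5 ± 2.47 FPKM with overlapping groups (-0.51, adjusted p = 0.532, and -0.29 without PBS library 1). In the peroxisomal list 7 of 9 were lower (median -0.09), led by the thiolase Acaa1a (30.3 ± 5.41 and 23.9 ± 3.30 FPKM, -0.37, adjusted p = 0.534, and -0.21 without PBS library 1) and catalase, Cat (85.0 ± 27.7 and 71.5 ± 9.23 FPKM, -0.28). The value of Cat was -0.49 without PBS library 1 and 0.01 without PBS library 3.

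The pyruvate dehydrogenase complex, the target of PDK4, and its regulators had 9 of 13 genes higher (median 0.13). Pdp1, a phosphatase that turns the complex on, had 6.74 ± 0.762 and 8.96 ± 1.35 FPKM (0.39, adjusted p = 0.484). Pdk3, a kinase that turns it off, had 4.44 ± 0.584 and 5.63 ± 1.15 FPKM (0.33, adjusted p = 0.601), and its groups overlapped.

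Cell type markers differed between the libraries too. Summed FPKM of 7 monocyte markers ran from 119 to 172 in PBS and from 211 to 311 in BSN-37, without overlap. Of these 7, 6 were higher, 5 of them at an unadjusted p under 0.05 (9.1% of all genes in either direction), and DESeq2 called 3 (1.18% of all genes). The other, F13a1, was lower at an unadjusted edgeR p of 0.0411, without overlap (log2 difference -0.35). The 6 B cell markers summed to 6.43 to 13.7 and 12.5 to 27.4 FPKM, the 7 resident macrophage markers to 73.0 to 94.5 and 77.2 to 126 FPKM, and the 7 neutrophil markers, which include Csf3r, to 79.0 to 127 and 120 to 231 FPKM, with overlap in each. Of the B cell markers 4 were tested, all higher, 3 of them at an unadjusted p under 0.05 and without overlap, and DESeq2 called 2. Of the 6 tested resident macrophage markers 5 were higher, 4 at an unadjusted p under 0.05. The groups overlapped for each of the 6, and DESeq2 called 0 of them. For the 4 (Gata6, Selp, F5 and Prg4), BSN-37 library 3 lay within the PBS range in FPKM. The part of these cells in the values of Pparg, Fabp5, Cpt1a and Angptl4 was not tested. Of 8 markers of adipocytes, which also express Pparg, Fabp4 and Lpl, Adipoq, Cidec, Lep, Cfd and Car3 were listed at 0 in every library. Plin1 reached at most 0.102 FPKM and was above 0 in 5 of 6 libraries, and Retn was at 0.0363 to 0.301 FPKM in all 6. The sum of the 8 was 7.22 to 11.2 FPKM in PBS and 7.11 to 9.64 in BSN-37, nearly all of it Lipe. Endothelial markers, 6 in number, summed to 1.91 to 3.12 and 3.07 to 4.93 FPKM, with Emcn listed at 0. Kdr was higher in every BSN-37 library (0.896 ± 0.338 and 2.03 ± 0.535 FPKM, log2 difference 1.17, adjusted p = 0.388 with edgeR and 0.0150 with DESeq2). Kdr was under 1 FPKM in PBS libraries 2 and 3 (0.990 and 0.521 FPKM), so it entered the test mainly through the BSN-37 group. Pecam1 had a higher mean with overlapping groups (0.949 ± 0.494 and 1.40 ± 0.472 FPKM). Lower means after BSN-37, with overlap and under the filter, were those of Cdh5 (0.567 ± 0.293 and 0.368 ± 0.0389 FPKM), Tie1 (0.270 ± 0.115 and 0.169 ± 0.0521 FPKM) and Egfl7 (0.0351 and 0 FPKM). Mesothelial, T cell, eosinophil and mast cell, and dendritic cell lists each summed to at most 4.74 FPKM in any library, and the erythroid list to 0.165 to 33.9 FPKM, highest in BSN-37 library 3 and next in PBS library 2.

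**Figure D4:**
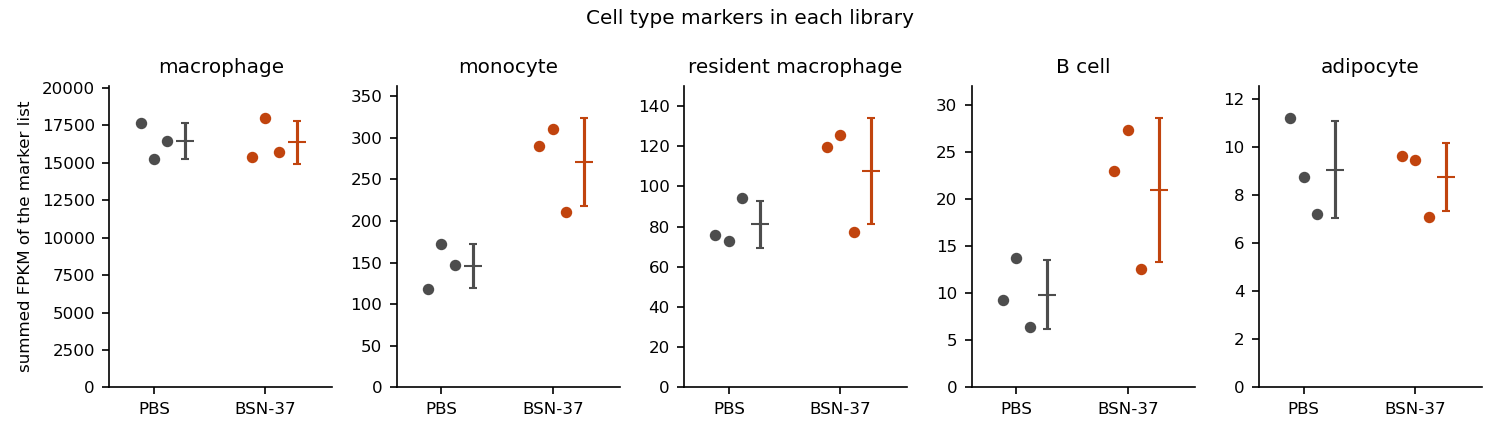
Summed FPKM of marker lists in each PBS (grey) and BSN-37 (orange) library, with the mean and SD of each group; axes start at 0 and differ in scale. The monocyte sum is between 119 and 172 in PBS and between 211 and 311 in BSN-37, and the macrophage, resident macrophage, B cell and adipocyte sums overlap between groups.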

How the data were processed

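Directional, rRNA-depleted libraries of 3 PBS and 3 BSN-37 pools were grouped by their labels. The design text describes microarrays, while the deposited values are those of sequencing. The deposited gene table gives, per the file headers, read counts and FPKM of each library. Its build is GRCm38, per the submitters' processing notes. The sources used here do not name the aligner, the counter, its use of strand or the annotation. The 4 group-mean and 6 circular RNA signal columns were not used.

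Classes and coordinates came from GENCODE M21 by Ensembl ID (42456 of 43339 matched). Coding genes that reached 1 FPKM in 3 or more of 6 libraries were tested on the counts with edgeR 4.0.16 (R 4.3.3; TMM factors, quasi-likelihood test, two-sided, no covariates), adjusted by Benjamini-Hochberg over all 9864 genes, threshold 0.05. DESeq2 1.42.0, limma 3.58.1 on log2(FPKM + 1), other scalings, filters and single libraries left out were alternatives. Each test was checked on simulated data. No 2 libraries of a group agreed within sampling noise (chi-square of 55.1 to 195 per degree of freedom). Intervals are 95%.

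The genes, the 8 pathway lists and the marker lists were chosen with earlier results of these data known. Named genes are the 10, the 2 of lowest p in each pathway list, the 5 nearest to Pparg and any gene past the threshold.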

Additional observations from a re-analysis of the deposited data

How the results depend on the processing

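The count of coding genes past the threshold, 1 in the reported fit, was 0 with median-of-ratios scaling, with all gene classes, with limma at either pseudocount (1 or 0.1) and with the replicate block, 2 without a filter, and 116 with DESeq2. With single libraries left out it ran from 0 to 12, the 12 being without BSN-37 replicate 2. Of the 10 genes described, 0 were called in each of these but DESeq2, which called 2, Pparg and Fabp5; the cause was not tested. Same-numbered libraries correlated at 0.0897, 0.137 and -0.0433 in their deviations from the group means, so the numbers were not taken to pair the pools. Directions turned only on leaving out single libraries: Cd36 ranged from -0.16 to 0.28 (-0.05 without BSN-37 replicate 3) on the log2 scale, Lpl from -0.31 to 0.0802 (0.0276 without PBS replicate 3), Ppard from -0.0222 to 0.21, Ppargc1b from -0.47 to 0.0781 and Cat from -0.49 to 0.00691. The Fabp5 to Fabp4 ratio, recomputed in alternatives added after seeing the data, ranged from -0.26 to 0.69. Depth limits Pdk4, with 6 to 27 reads per library. Angptl4 had 47 to 122 reads and was left out by the filter on FPKM, so neither has a value in the filtered fits.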
